A study of Mus musculus with 2 samples.

Results

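The 10 genes described here make the galactolipids of myelin and the fatty acids that go into them: Ugt8a, Gal3st1, Fa2h, Cers2, Aspa, Elovl1, Elovl7, Fasn, Scd1 and Scd2. They were chosen by function, as the rows whose Ensembl gene ID carries one of those symbols, and all 10 were found among the 43346 Ensembl genes of the deposited tables. The data are poly(A)-selected RNA sequencing of brain tissue from 1 male C57BL/6J mouse aged 10 weeks, with no treatment and no brain region named. There were 2 libraries, technical replicates 2 and 1 of the same biological replicate, and replicate 2 was made later, in a separate round of work. Technical replicate 2 held 17828479 expected counts and technical replicate 1 held 18302506.

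Galactosylceramide and its sulfated form, sulfatide, are lipids in which myelin is unusually rich. They are built by oligodendrocytes, the myelin-forming cells of the brain, from a ceramide that often carries a very long and 2-hydroxylated acyl chain. The acyl chains come from fatty acid synthesis, elongation and desaturation, and part of the acetate for that synthesis can come from N-acetylaspartate, a metabolite that neurons make and oligodendrocytes split.

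No condition was compared, so the question the files can answer is how high each gene stood and how far the libraries of 1 mouse agreed on it. Levels are given in TPM, a transcript level that the authors' tables scale for length and to the same total in each library. Each SD is over 2 libraries of 1 mouse and is therefore technical. With 1 library a side, the difference between libraries had no replicate check, and each test below compares these libraries and no conditions. All 10 genes reached 1 TPM in replicate 2, and 8 did in replicate 1, where Gal3st1 and Fasn were below it. The 10 genes summed to 882 TPM in replicate 2 and 578 TPM in replicate 1.

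**Figure D1:**
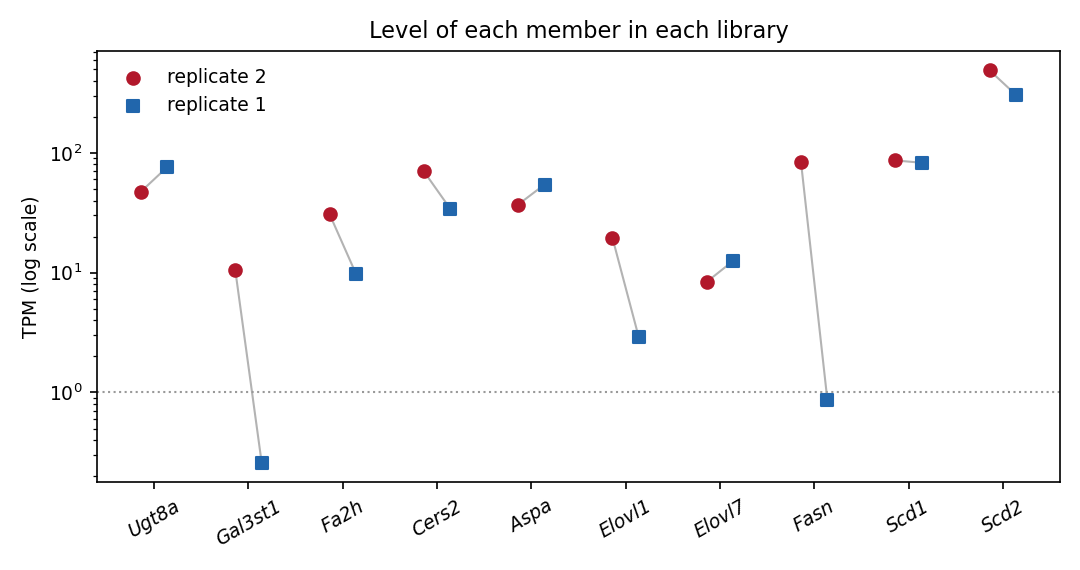
Level of each of the 10 genes in TPM on a log axis, with circles for replicate 2, squares for replicate 1, and a dotted line at 1 TPM. Fasn and Gal3st1 lay far apart between the libraries, while Scd1 stood at 86.4 TPM in replicate 2 and 82.7 TPM in replicate 1.

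The stretches below are shown because these 4 genes lie near the ends of the GC range of the 10 and moved in opposite directions between the libraries. Each is 120 coding bases within 1 exon, the first whose GC content was nearest to that of the gene's whole coding sequence, from GENCODE M21 transcripts on GRCm38, with each CpG in capitals. The Fasn stretch lies in exon 4 at chr11:120820905-120821024 on the minus strand and was 58.3% GC with 6 CpG. The Gal3st1 stretch lies in exon 4 at chr11:3997935-3998054 on the plus strand and was 60.8% GC with 6 CpG. The Ugt8a stretch lies in exon 2 at chr3:125915319-125915438 on the minus strand and was 45% GC with 3 CpG. The Aspa stretch lies in exon 6 at chr11:73305489-73305608 on the minus strand and was 40.8% GC with 1 CpG.
Fasn: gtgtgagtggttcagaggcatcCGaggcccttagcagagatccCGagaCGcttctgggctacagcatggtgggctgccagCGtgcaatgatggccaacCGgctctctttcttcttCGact
Gal3st1: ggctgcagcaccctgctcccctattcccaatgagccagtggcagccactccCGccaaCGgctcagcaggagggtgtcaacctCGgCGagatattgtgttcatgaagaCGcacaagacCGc
Ugt8a: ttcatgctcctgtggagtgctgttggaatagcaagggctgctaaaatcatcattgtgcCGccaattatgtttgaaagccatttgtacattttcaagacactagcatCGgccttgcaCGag
Aspa: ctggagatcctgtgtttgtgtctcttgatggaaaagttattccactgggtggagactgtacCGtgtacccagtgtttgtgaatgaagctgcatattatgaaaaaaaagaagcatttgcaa

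Ugt8a, on chromosome 3 (125865271 to 125938619, minus strand), encodes the galactosyltransferase that turns ceramide into galactosylceramide. Ugt8a stood at 47.5 TPM in replicate 2 and 76.3 TPM in replicate 1, a mean of 61.9 ± 20.4 TPM (SD, n = 2). Replicate 2 was the lower library, with a TPM ratio of 0.622 and a 95% exact counting interval of 0.587 to 0.659. Intervals of this kind cover counting error only.

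Gal3st1, on chromosome 11 (3983636 to 3999326, plus strand), encodes the sulfotransferase that makes sulfatide from galactosylceramide. Gal3st1 stood at 10.5 TPM in replicate 2, from 188 counts, and at 0.26 TPM in replicate 1, from 6 counts. The TPM ratio was 40.5, with a counting interval of 18.3 to 112 that is wide because of those 6 counts. The mean of 5.40 ± 7.27 TPM had an SD larger than itself, so no single level can be given for this enzyme.

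Fa2h, on chromosome 8 (111345135 to 111393824, minus strand), encodes the hydroxylase that makes 2-hydroxy fatty acids. Fa2h stood at 30.8 TPM in replicate 2 and 9.80 TPM in replicate 1, a ratio of 3.14 (counting interval 2.72 to 3.64) and a mean of 20.3 ± 14.8 TPM. The 3 galactolipid enzymes Ugt8a, Gal3st1 and Fa2h together made up 88.8 TPM in replicate 2 and 86.4 TPM in replicate 1, so their sum was nearly equal while its parts moved in opposite directions. Gal3st1 was 0.222 times Ugt8a in replicate 2 and 0.00341 times Ugt8a in replicate 1. Fa2h was 0.649 times Ugt8a in replicate 2 and 0.128 times Ugt8a in replicate 1.

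Cers2, on chromosome 3 (95314791 to 95323599, plus strand), encodes the ceramide synthase that prefers very long acyl chains. Cers2 stood at 70.1 TPM in replicate 2 and 34.2 TPM in replicate 1, a ratio of 2.05 (counting interval 1.88 to 2.24) and a mean of 52.1 ± 25.4 TPM. Cers2 exceeded Ugt8a in replicate 2, at 1.48 times its level, and not in replicate 1, at 0.448 times. In the annotation Cers2 overlaps Setdb1 on the opposite strand by 75 bases and the antisense gene 6330562C20Rik by 337 bases, and no source used here says whether the counting used strand. The antisense gene held 6 counts in replicate 2 and 0 in replicate 1.

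Aspa, on chromosome 11 (73304992 to 73329596, minus strand), encodes aspartoacylase, the enzyme that splits N-acetylaspartate and frees its acetate. Aspa stood at 37.0 TPM in replicate 2 and 54.4 TPM in replicate 1, a ratio of 0.680 (counting interval 0.613 to 0.754) and a mean of 45.7 ± 12.3 TPM.

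Elovl1, on chromosome 4 (118428093 to 118432953, plus strand), and Elovl7, on chromosome 13 (108214404 to 108285683, plus strand), encode elongases of long and very long acyl chains. Elovl1 stood at 19.6 TPM in replicate 2 and 2.88 TPM in replicate 1, a ratio of 6.79 (counting interval 4.83 to 9.78). Elovl7 stood at 8.37 TPM in replicate 2 and 12.5 TPM in replicate 1, a ratio of 0.667 (counting interval 0.597 to 0.746). The order of the pair therefore turned between the libraries, with Elovl1 at 2.34 times Elovl7 in replicate 2 (1.99 to 2.73) and at 0.230 times Elovl7 in replicate 1 (0.162 to 0.316). Their means were 11.2 ± 11.8 TPM for Elovl1 and 10.5 ± 2.95 TPM for Elovl7. Elovl1 overlaps the opposite-strand gene Cdc20 by 53 bases.

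Fasn, on chromosome 11 (120805846 to 120824547, minus strand), encodes fatty acid synthase, which makes palmitate. Fasn stood at 83.5 TPM in replicate 2, from 4135 counts, and at 0.86 TPM in replicate 1, from 116 counts. Its TPM ratio was 97.1, with a counting interval of 80.7 to 118 that overlaps that of Gal3st1, and the count ratios of these genes were 35.6 for Fasn and 31.3 for Gal3st1. The mean for Fasn of 42.2 ± 58.4 TPM again had an SD above the mean. Fasn was 0.171 times Scd2 in replicate 2 and 0.00283 times Scd2 in replicate 1.

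Scd1 and Scd2 are neighbours on chromosome 19, at 44394455 to 44407879 on the minus strand and 44293674 to 44306864 on the plus strand, and encode stearoyl-CoA desaturases, which place a double bond in saturated acyl chains. Scd2 is the form known for its high level in mouse brain. Their coding sequences were 89.6% identical. The longest run shared by their transcripts was 147 bases, so reads within such runs could fit either gene. In replicate 2 the authors' posterior SD of the counts was 2.19 for Scd1, which had 4356 counts, and 1.99 for Scd2, which had 27858. In replicate 1 it was 0 for both, so the authors' estimates left few counts uncertain. Of all 100-base words in the Scd1 transcripts, 2.58% also occurred in another gene, against 0.879% for Scd2. The first gap-free 120 bases of the aligned coding sequences are shown with the 32 bases that differ in capitals. This stretch differs more than the coding sequences as a whole, which were identical at 962 of 1074 aligned positions, so it is not typical of them. The Scd2 stretch is coding bases 84 to 203, exon 2, chr19:44294963-44295082 on the plus strand, and the Scd1 stretch is coding bases 75 to 194, exon 2, chr19:44406591-44406710 on the minus strand.
Scd2: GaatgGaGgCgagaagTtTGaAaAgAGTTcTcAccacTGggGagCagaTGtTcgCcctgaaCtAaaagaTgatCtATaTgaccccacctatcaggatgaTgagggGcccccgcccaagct
Scd1: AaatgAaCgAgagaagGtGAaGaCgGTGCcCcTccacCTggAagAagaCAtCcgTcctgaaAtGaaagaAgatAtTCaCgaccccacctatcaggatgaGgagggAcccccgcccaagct

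Scd2 stood at 488 TPM in replicate 2 and 304 TPM in replicate 1, a ratio of 1.60 (counting interval 1.58 to 1.63) and a mean of 396 ± 130 TPM. Scd1 stood at 86.4 TPM in replicate 2 and 82.7 TPM in replicate 1, a ratio of 1.05 (counting interval 1.00 to 1.09) and a mean of 84.6 ± 2.67 TPM. Scd2 was above Scd1 in both libraries, at 5.65 times its level in replicate 2 and 3.68 times in replicate 1. Scd2 alone held 55.3% of the summed TPM of the 10 genes in replicate 2 and 52.6% in replicate 1.

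In replicate 2 the levels ran, from high to low, Scd2, Scd1, Fasn, Cers2, Ugt8a, Aspa, Fa2h, Elovl1, Gal3st1 and Elovl7. The authors' 95% credibility intervals of the posterior mean TPM overlapped there for Scd1 and Fasn and for Fasn and Cers2, and for no other neighbours. In replicate 1 the order was Scd2, Scd1, Ugt8a, Aspa, Cers2, Elovl7, Fa2h, Elovl1, Fasn and Gal3st1, with no overlap between neighbours. Scd2 and Scd1 kept the top ranks in both libraries, Fasn was at rank 3 in replicate 2 and rank 9 in replicate 1, and Elovl7 was at rank 10 in replicate 2 and rank 6 in replicate 1. The highest level was 58.3 times the lowest in replicate 2 and 1171 times in replicate 1.

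Rounded expected counts were then compared gene by gene, with library sizes scaled by TMM, a trimmed mean of ratios that assumes most genes are unchanged. A gene was called at a Benjamini-Hochberg adjusted p under 0.05 in a two-sided exact binomial test and at least a 2-fold difference. Gal3st1, Elovl1 and Fasn were called higher in replicate 2, 3 of the 10 genes, where 34.5% of all 16320 genes tested were called higher. Ugt8a, Aspa and Elovl7 were called lower, 3 of the 10, where 23.8% of all genes tested were called lower. Together 6 of the 10 genes were called, beside 58.2% of all genes, so these shares are close to those of the whole table. Fa2h missed the call by little, at 0.95 on the log2 scale. With TMM factors taken over all genes in place of genes with at least 10 counts, Fa2h was at 1.00 and was called, which makes 4 higher and 3 lower.

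On this count scale the log2 differences of called genes were 4.58 for Fasn, 4.29 for Gal3st1 (adjusted p = 1.65e-33, exact binomial test) and 2.05 for Elovl1 (adjusted p = 1.30e-21, exact binomial test). They were -1.66 for Ugt8a, -1.59 for Aspa and -1.56 for Elovl7. Cers2 at 0.23, Scd2 at -0.30 and Scd1 at -0.92 were under 2-fold. Library totals in place of TMM moved every log2 count ratio by 0.61, after which Fa2h was called higher at 1.56, Ugt8a was still called lower at -1.05, and Aspa at -0.98 and Elovl7 at -0.95 were no longer called. With totals, 43.4% of all genes were called higher and 7.83% lower. Scd2 turned from below to above equality, at 0.31 with totals.

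The median difference of the 10 genes in log2 (TPM + 1) was 0.85, beside 0.88 over the 14229 genes with a mean of at least 1 TPM. Of the 10 genes 7 were above 0, beside 74.0% of those genes. On TPM + 1, 5 of the 10 genes were at least 2-fold higher in replicate 2 and 0 were at least 2-fold lower, beside 47.7% and 1.65% of those genes.

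A TPM ratio is the product of the count ratio, the change in effective length and the scaling to the common total. That scaling was about 1.33 for each gene. Effective length mattered most for Fasn, whose effective length was 4569 bases in replicate 2 and 9404 bases in replicate 1, a factor of 2.06 on top of a count ratio of 35.6. For Elovl1 and Fa2h the length factor went the other way, at 0.821 and 0.824, and for Cers2 it was 0.891. For the genes with 1 deposited transcript, Ugt8a, Elovl7, Scd1 and Scd2, it was 1.00.

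**Figure D2:**
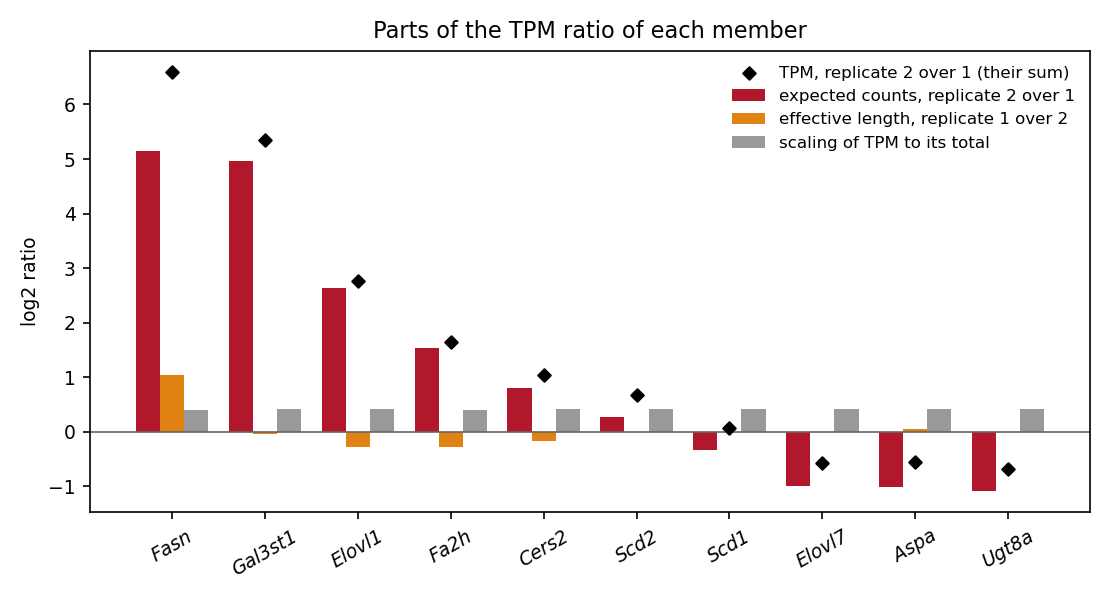
Log2 ratio of each gene, replicate 2 over replicate 1 (diamonds), split into bars for expected counts, effective length (replicate 1 over replicate 2) and the scaling of TPM to its total. For Fasn, Gal3st1 and Elovl1 the count bar is the longest, for Scd1 the count and scaling bars point in opposite directions, and the length bar is longest for Fasn, where the factor was 2.06.

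Differences between the libraries ran with GC content. Across the 10 genes, Spearman's rho between the GC content of the transcripts and the log2 (TPM + 1) difference was 0.96 and Pearson's r was 0.89, and across 14188 genes rho was 0.89. These are descriptions over genes of the same 2 libraries. Ugt8a at 40.2% GC, Aspa at 39.2% and Elovl7 at 42.3% were lower in replicate 2, and Gal3st1 at 60.1% and Fasn at 58.5% were far higher. Scd1 at 47.1%, Scd2 at 49.5%, Cers2 at 51.2%, Elovl1 at 53.9% and Fa2h at 54.4% lay between. The part of GC content in these differences was not tested.

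With the GC trend of all genes removed from the counts, 0 of the 10 genes were called higher and 0 lower, where 10.3% of all genes were still called higher and 9.05% lower. Removing a trend with transcript length instead left 3 higher and 3 lower, where 29% of all genes were higher and 31.2% lower. With the GC trend removed, the remaining log2 count differences ran to 0.70 for Fasn, 0.38 for Elovl1 and -0.95 for Fa2h. On TPM, 5 of the 10 genes lay between the quartiles of the genes of similar GC, and the median distance of the 10 from the trend was 0.28, beside 0.37 for all genes. Fasn was 2.21 above the trend on log2 (TPM + 1), the farthest of the 10, and its changed effective length is part of that value.

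**Figure D3:**
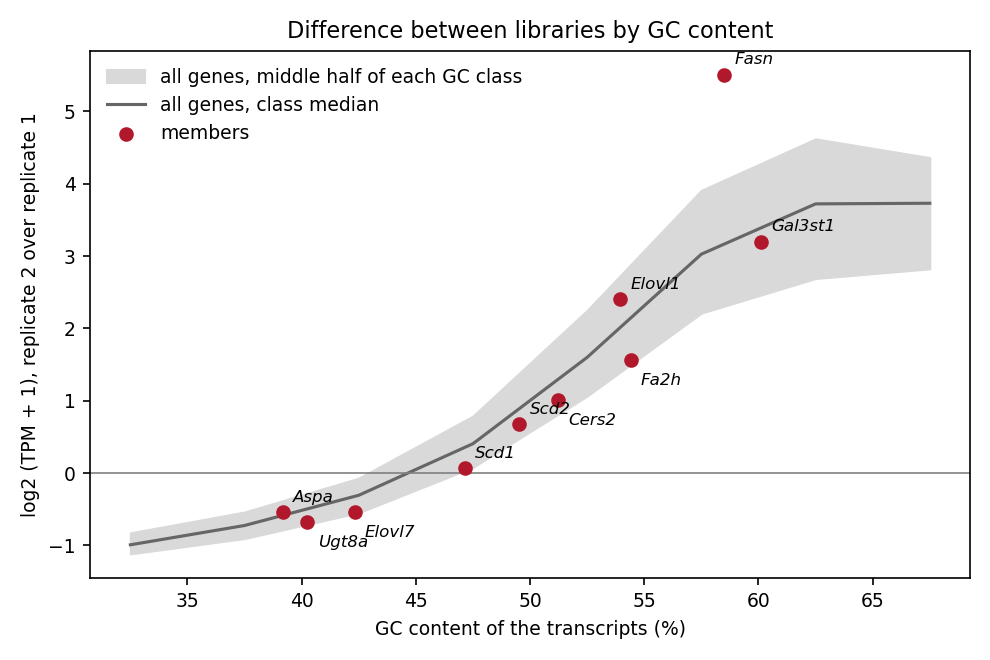
Difference in log2 (TPM + 1), replicate 2 over replicate 1, against the GC content of the transcripts in percent, with the 10 genes as points and the median (line) and range between the quartiles (band) of all genes in each GC class. The band joins the class quartiles by straight lines, whereas the count of 5 of the 10 genes between the quartiles is taken within each gene's own GC class. Fasn was farthest from the lowess trend of all genes, 2.21 above it, and that trend is not drawn.

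The authors' tables also split each gene among annotated transcripts. The 10 genes had 36 deposited transcripts, and 4 of the genes had 1 each. The leading transcript differed between the libraries in 3 of the 6 other genes, Fa2h, Gal3st1 and Elovl1. These shares are estimates without a replicate check, and for Gal3st1 the change was not resolved. The share of counts held by Gal3st1-201 in replicate 1 had an exact interval of 4.33% to 77.7%, which includes its 66.0% in replicate 2. For Elovl1 the leader in replicate 2 was not resolved. The authors' credibility intervals there overlapped, at 2.71 to 8.99 TPM for Elovl1-207 and 2.52 to 8.70 TPM for Elovl1-201. By counts Elovl1-201 was ahead there, with 101.65 beside 84.24 for Elovl1-207.

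Fa2h showed the clearest switch. The coding transcript Fa2h-201 made up 86.8% of the gene in replicate 2 and 11.0% in replicate 1, while Fa2h-202, annotated as a processed transcript with no coding sequence, made up 8.28% in replicate 2 and 84.1% in replicate 1. In TPM, Fa2h-201 stood at 26.7 in replicate 2 and 1.08 in replicate 1. Fa2h-201 has 527 bases that Fa2h-202 lacks, 455 of them coding, at 67.0% GC, whereas Fa2h-202 has 6 bases of its own. Much of that difference is a GC-rich stretch at the start of the coding sequence, shown because it separates Fa2h-201 from Fa2h-202. It is not unique to the coding transcript. Against all other deposited transcripts of the gene, Fa2h-201 has 6 bases of its own, 0 of them coding. The first 240 bases of the stretch, from the start codon on, lie in exon 1 at chr8:111393513-111393752 on the minus strand. They were 73.8% GC and held 26 CpG, shown in capitals.
Fa2h: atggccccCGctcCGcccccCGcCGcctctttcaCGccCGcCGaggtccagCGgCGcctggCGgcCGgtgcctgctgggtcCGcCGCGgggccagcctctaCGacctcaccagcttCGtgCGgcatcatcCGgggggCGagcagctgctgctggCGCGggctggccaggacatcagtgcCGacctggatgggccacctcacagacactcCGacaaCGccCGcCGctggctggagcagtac

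Fasn was split among the coding Fasn-201, at 44.7% in replicate 2 and 100% in replicate 1, and 2 short retained-intron transcripts. Fasn-202 held 30.7% of the gene's TPM in replicate 2 and Fasn-203 held 24.6%, but only 3.87% and 4.23% of its counts. Both were at 0 of 116 counts in replicate 1, which allows a share of counts of up to 3.13% (exact interval). The replicate 2 shares of counts were little above that limit. That limit leaves out the error of assigning reads to transcripts. By counts, Fasn-201 held 91.9% of the gene in replicate 2, because TPM weighs a short transcript more per read. Fasn-201 alone stood at 37.3 TPM in replicate 2 and 0.86 TPM in replicate 1, a log2 (TPM + 1) difference of 4.36 for the coding transcript, beside 5.51 for the gene.

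Elovl1-202 made up 2.77% of Elovl1 in replicate 2 and 74.7% in replicate 1, and Elovl1-207 made up 34.5% in replicate 2 and 16.8% in replicate 1. Elovl1-201 at 29.5% and Elovl1-203 at 18.3% of TPM in replicate 2 held 42.0% and 16.9% of the gene's counts there. Both were at 0 of 39 counts in replicate 1, which allows a share of counts of up to 9.03% by counting error alone. Elovl1-203 and Elovl1-207 each have 0 bases that no other transcript of the gene holds, so their counts rest on the authors' assignment of shared reads. Gal3st1-201 held 63.9% in replicate 2 and 26.5% in replicate 1, where the gene had 6 counts, and Gal3st1-202 held the remaining 36.1% and 73.5%. Cers2-201 led in both libraries, at 79.2% in replicate 2 and 66.4% in replicate 1, and the retained-intron transcript Cers2-207 was at 5.82% in replicate 2 and 28.5% in replicate 1. Aspa-201 led in both, at 91.2% in replicate 2 and 97.0% in replicate 1.

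**Figure D4:**
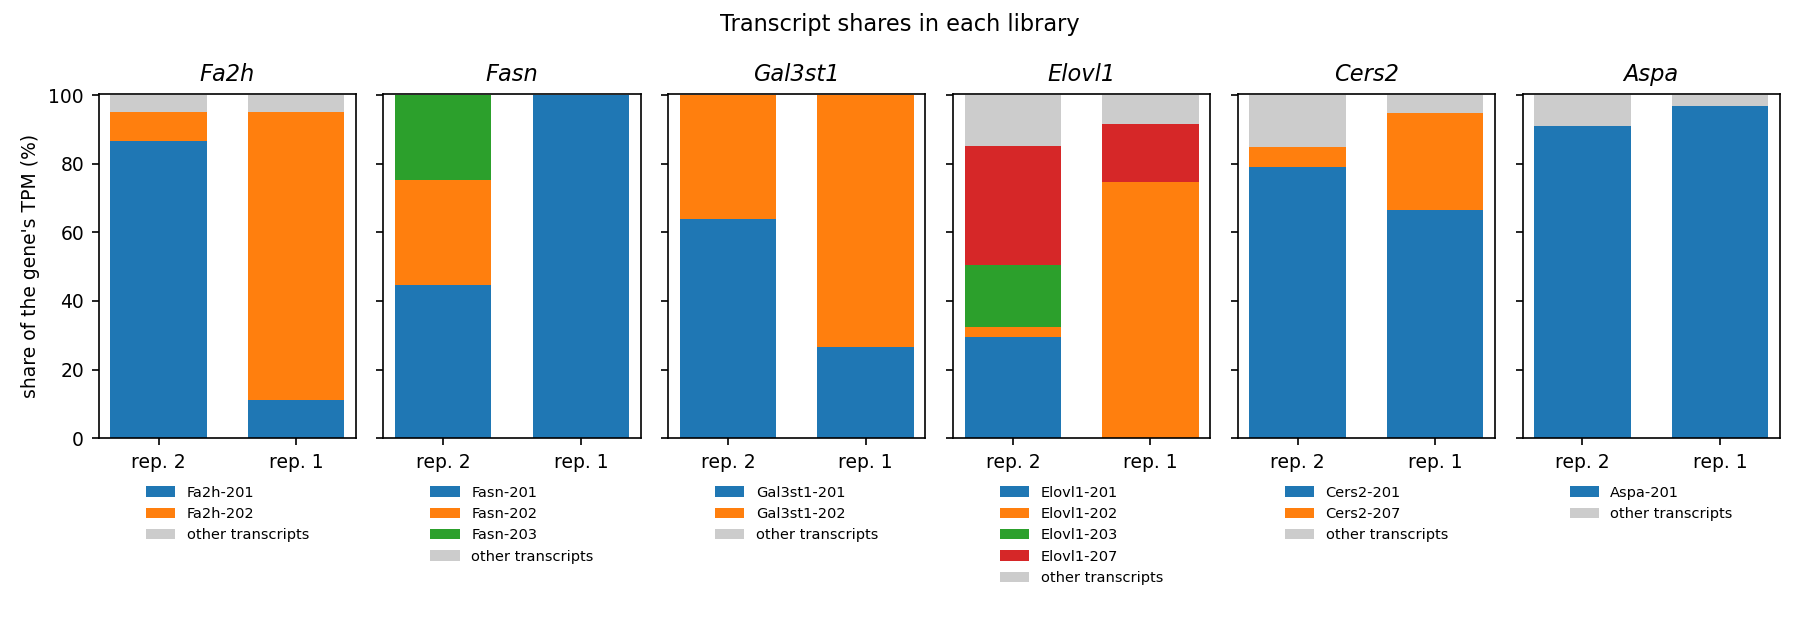
Share of each gene's TPM in percent held by its annotated transcripts, for the 6 genes with several transcripts, replicate 2 left of replicate 1. Fa2h-201 held 86.8% of Fa2h in replicate 2 and 11.0% in replicate 1. The retained-intron transcripts of Fasn, 30.7% and 24.6% in replicate 2, are listed at 0 in replicate 1. By counts these transcripts held 3.87% and 4.23% of Fasn in replicate 2.

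The other genes of the pathway were taken from 5 lists with 47 genes, all tested. With TMM sizes 18 of them passed as higher and 9 as lower in replicate 2, beside 34.5% and 23.8% of all genes. With library totals 21 were higher and 1 was lower, beside 43.4% and 7.83% of all genes. With the GC trend removed 5 were higher and 4 lower, beside 10.3% and 9.05% of all genes. Of 9 genes for sphingoid bases and ceramide, 1 was higher and 2 were lower. Degs1, the desaturase that completes ceramide, stood at 81.7 TPM in replicate 2 and 87.3 TPM in replicate 1. Sptssa, a small subunit of serine palmitoyltransferase, was called lower, at 49.7 TPM in replicate 2 and 76.7 TPM in replicate 1. Cers1, the ceramide synthase of neurons, was called higher, at 45.4 TPM in replicate 2 and 0.22 TPM in replicate 1.

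Of 7 genes for breakdown and other headgroups, 2 were higher and 2 lower with TMM sizes, beside 34.5% and 23.8% of all genes. Psap, the precursor of the saposins that help lysosomal enzymes reach their lipids, was called higher, at 971 TPM in replicate 2 and 62.9 TPM in replicate 1. Asah1, acid ceramidase, was called lower, at 46.1 TPM in replicate 2 and 117 TPM in replicate 1. Of 18 genes of fatty acid synthesis, elongation and desaturation, 5 were higher and 5 lower, beside the same shares of all genes. With totals 8 were higher and 0 lower, beside 43.4% and 7.83% of all genes. Tecr, the reductase of the elongation cycle, was called higher, at 403 TPM in replicate 2 and 11.6 TPM in replicate 1. Hacd3, a dehydratase of the same cycle, was called lower on the count scale, at 124 TPM in replicate 2 and 130 TPM in replicate 1, and Elovl4 was called lower, at 34.3 TPM in replicate 2 and 45.0 TPM in replicate 1. Both lower calls were lost with library totals, as was that of Asah1.

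Both genes of N-acetylaspartate supply were called higher with TMM sizes, where 34.5% of all genes were. With the GC trend removed Nat8l was called lower and Slc13a3 was not called. Nat8l, which makes N-acetylaspartate, stood at 95.6 TPM in replicate 2 and 7.52 TPM in replicate 1, and Slc13a3, a carrier of it, at 7.48 TPM in replicate 2 and 0.21 TPM in replicate 1. Of 11 regulators 8 were higher and 0 lower, beside 34.5% and 23.8% of all genes. With the GC trend removed 2 were higher and 2 lower, beside 10.3% and 9.05% of all genes. Srebf1, a transcription factor for fatty acid synthesis, was called higher, at 29.5 TPM in replicate 2 and 0.14 TPM in replicate 1. Insig1 and Insig2, which hold such factors back, were not called, at 49.6 and 48.4 TPM in replicate 2 and 38.8 and 68.9 TPM in replicate 1. Srebf1 was still called higher with the GC trend removed. The regulators had a median GC content of 57.9% and the genes of N-acetylaspartate supply 57.7%, beside 50.4% for the 10 genes.

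**Figure D5:**
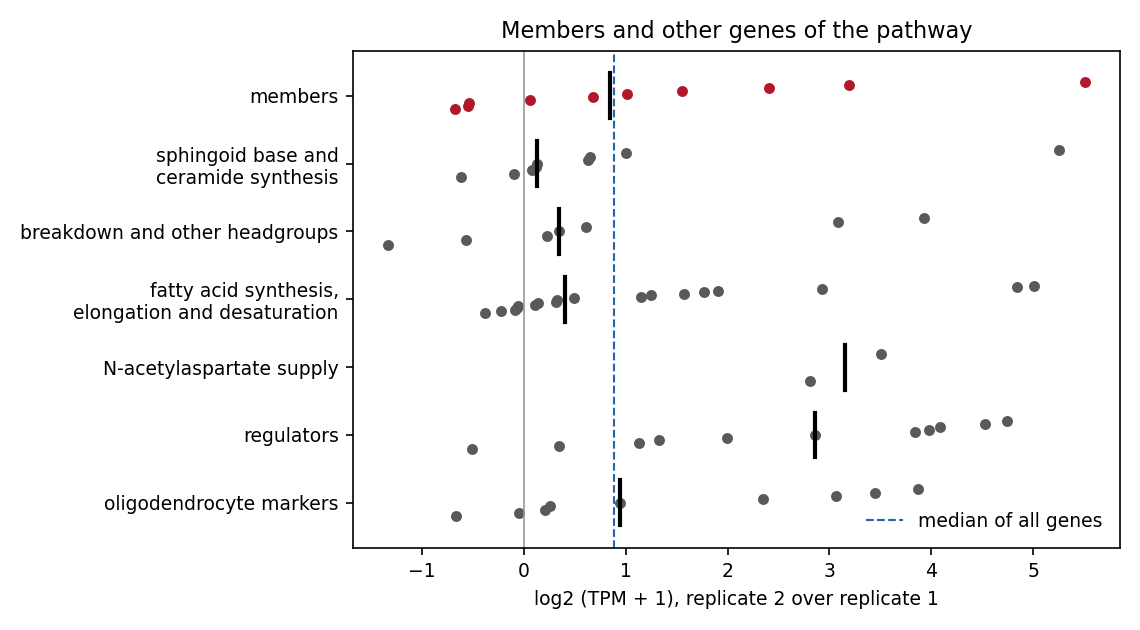
Difference in log2 (TPM + 1), replicate 2 over replicate 1, for the 10 genes, the 5 pathway lists and the oligodendrocyte markers, with a bar at each list's median and a dashed line at the median of all genes, 0.88. The list of the 10 genes lies near that line, at 0.85, and the regulators, at 2.86, and the genes of N-acetylaspartate supply, at 3.16, lie above it.

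The tissue label was checked with cell type markers. Oligodendrocyte markers summed to 5725 TPM in replicate 2 and 2457 TPM in replicate 1. With TMM sizes 4 of 9 were called higher and 2 lower, beside 34.5% and 23.8% of all genes. With the GC trend removed 1 was higher and 1 lower, beside 10.3% and 9.05% of all genes. Mbp stood at 2734 TPM in replicate 2 and 249.9 TPM in replicate 1, Mag at 224 TPM in replicate 2 and 14.4 TPM in replicate 1, and Ermn at 56.7 TPM in replicate 2 and 90.3 TPM in replicate 1. The markers thus did not move together, and in bulk tissue fewer cells of a type and less RNA per cell cannot be told apart. The adipocyte markers summed to 0.06 TPM in replicate 2 and 0.05 TPM in replicate 1, with Adipoq, Plin1 and Lep at 0 in both libraries. Neuron markers summed to 4189 TPM in replicate 2 and 4179 TPM in replicate 1. With TMM sizes 2 of 5 were called higher and 1 lower, beside 34.5% and 23.8% of all genes. Snap25 was called lower, at 2764 TPM in replicate 2 and 3457 TPM in replicate 1, and Slc17a7 was called higher, at 466 TPM in replicate 2 and 25.5 TPM in replicate 1. Astrocyte markers summed to 1732 TPM in replicate 2 and 828 TPM in replicate 1. Liver markers summed to 863 TPM in replicate 2 and 72.2 TPM in replicate 1, nearly all of it Ttr, which the choroid plexus of the brain also makes, at 856 TPM in replicate 2 and 72.0 TPM in replicate 1. The part of other cell types in the differences of the 10 genes was not tested. Markers of Schwann cells, which make myelin outside the brain, summed to 0.29 TPM in replicate 2 and 0.15 TPM in replicate 1.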

How the data were processed

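Poly(A) RNA sequencing of 1 mouse brain gave 2 libraries, technical replicates of 1 biological replicate. Expected counts, TPM and FPKM per gene and transcript, and the percent of each gene held by a transcript (IsoPct), were deposited by the authors, with posterior means and credibility bounds; the upper-bound columns were treated as a score without fixed range in the deposited tables. Per the file headers and listings the build was mm10 and the annotation GENCODE M4; no quantifier is named in the sources used here. Whether the libraries came from separate RNA extracts is also not stated. The tests compare only these libraries and allow for counting error alone, with no estimate of spread between libraries.

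Only Ensembl genes were used. The 26248 rows named by a number held 1 count in replicate 2 and 0 in replicate 1, and 97 other rows held 0 in both. Symbols were matched for 42462 of 43346 genes, and sequences, GC content and coordinates came from GENCODE M21 on GRCm38, which held 97.9% of the 103639 transcripts, 90.1% of those at the same length. Elovl7-201 was 5435 bases as deposited and 4013 bases in M21, so its GC content is that of a shorter sequence. Ugt8a-201 was 3583 and 3740 bases, and Fasn-201 was 9587 and 10050 bases.

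Expected counts were rounded and genes with a summed count of at least 10 were tested with a two-sided exact binomial test (scipy 1.17.1) with TMM sizes (edgeR 4.0.16) and Benjamini-Hochberg adjustment; 0.5 was added to each side for folds. With 1 library a side neither edgeR's quasi-likelihood test nor DESeq2 can estimate spread. TMM factors were first computed over all genes, and were then taken over the tested genes, as in an earlier treatment of the same tables. That change was made with the calls of the 10 genes under both forms known, and it removed the call of Fa2h, so both counts are reported. DESeq2 size factors (1.42.0) were changed in the same way. TPM differences used a pseudocount of 1. GC and length trends were lowess fits with a fraction of 0.2. The test was checked on simulated counts. At these depths a count of 0 allows up to 3 counts, 1.68e-05% of replicate 2 and 1.64e-05% of replicate 1.

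The 10 genes and all lists were chosen with earlier results of these data known. Named are the 10 genes, their transcripts of at least 10% in a library, and, of each list, the 2 genes of highest mean TPM and those of highest and lowest log2 ratio. A marker gene that this rule names is not reported here. Alternatives were library totals, DESeq2 size factors, no minimum count, posterior means, trends removed, a 4-fold limit, FPKM, TMM-scaled CPM and a pseudocount of 0.1.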

Additional observations from a re-analysis of the deposited data

How the results depend on the processing

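The number of the 10 genes called depended on the scaling. The main TMM form, over genes with at least 10 counts, called 3 higher and 3 lower in replicate 2; TMM and DESeq2 factors over all genes each called 4 higher and 3 lower, the added gene being Fa2h. The all-genes forms were listed as alternatives after seeing the data, and the form over tested genes was made the main one with both results known. Over all genes tested, 5625 higher and 3877 lower calls became 5733 and 3652 with TMM over all genes. With library totals 7076 genes and 4 of the 10 were higher, and 1278 genes and 1 of the 10 were lower. With the GC trend removed 1669 genes were higher and 1472 lower, and 0 of the 10 either way. At 4-fold, of 16320 genes tested, 4068 genes and 3 of the 10 were higher, and 406 genes and 0 of the 10 were lower. The median log2 ratio of the 10, 0.85, was -0.039 with TMM-scaled CPM, -0.18 with the GC trend subtracted and -0.074 with the length trend subtracted; that of all genes was 0.09, 0.00 and -0.14. With the GC trend subtracted, Gal3st1 turned to -0.36 and Aspa to 0.12; the cause was not tested. With posterior means Scd1 averaged 78.8 TPM. Posterior mean shares in replicate 2 were 55.7% for Gal3st1-201, 83.9% for Fa2h-201, 76.7% for Cers2-201 and 85.8% for Aspa-201, and in replicate 1 93.7% for Aspa-201, 53.4% for Elovl1-202, 79.6% for Fasn-201, 12.3% for Fasn-202 and 8.12% for Fasn-203. Leaving out either library leaves the level of the other, so each gene's range is the pair of TPM values reported. No paired analysis was possible because there is only 1 group. Depth limits Gal3st1 most, with 6 counts in replicate 1.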
